A study of Mus musculus with 19 samples.

Results

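The 10 calcium cycling genes of the heart described here were chosen by symbol from the 55536 genes counted in ventricular tissue of mice. They are Atp2a2, Pln, Sln, Ryr2, Casq1, Casq2, Hrc, Cacna1c, Slc8a1 and Jph2, and all 10 were found under their Ensembl identifiers. The list follows function, and it was drawn up with earlier results of these data known. RNA came from wild-type ventricles (WT) and from ventricles in which Mpc1, a subunit of the mitochondrial pyruvate carrier, had been knocked out in the adult heart by an inducible system (KO). Libraries were made 8 or 16 weeks after induction, which gave 5 libraries in WT-8, 4 in KO-8, 5 in WT-16 and 5 in KO-16. The promoter behind the heart-specific knockout, the inducing agent, the age and strain of the mice, and whether the wild types carried a modified allele or received the agent, are not given in the sources used here. Nor do the labels say whether each library is a separate animal, so p-values measure only the spread between libraries, which may be technical.

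Contraction of a cardiomyocyte is set off by calcium. A small inward current through the L-type channel of the surface membrane opens the ryanodine receptors of the sarcoplasmic reticulum (SR), the store inside the cell, and the calcium they release binds troponin. Relaxation follows when the SR pump SERCA2 returns calcium to the store and the sodium-calcium exchanger moves the rest out of the cell. The store is buffered by calsequestrin and the histidine-rich calcium binding protein, the pump is restrained by phospholamban and sarcolipin, and junctophilin holds the surface membrane and the SR close together.

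Levels are given as CPM, counts of read pairs scaled to a common library total with TMM factors. Totals lay between 8.63 and 27.5 M (mega) read pairs over the 19 libraries. The knockout was visible in the counts: Mpc1 had 63.7 to 82.4 CPM in WT-8 and 8.42 to 11.99 CPM in KO-8, and 61.7 to 83.9 CPM in WT-16 against 9.04 to 26.2 CPM in KO-16. The KO-16 library with 26.2 CPM of Mpc1 was replicate 1. At 16 weeks the gene annotated on 18S ribosomal RNA took 1.71% to 39.1% of the counts, and at 8 weeks at most 0.0666%. The 10 cardiomyocyte markers, most of them shared by atria and ventricles, summed to between 86253 and 126343 CPM, with none at 0. Myl2, the regulatory light chain of ventricular myosin, had group means of 3830 to 4432 CPM. The atrial transcript Myl7 was above 10 CPM in 5 of the 10 libraries of 16 weeks, as described with Sln. Y-linked transcripts were above 1 CPM in 2 libraries, the fifth of WT-16 and the fourth of KO-16. In the tests below a gene is called when its Benjamini-Hochberg adjusted p in edgeR's quasi-likelihood test, fitted to all genes of 1 time, is under 0.05.

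Phospholamban and sarcolipin, the inhibitors of the pump among these genes, are encoded by very short reading frames. Their coding sequences on GRCm38 are shown because the ratio of inhibitor to pump is taken up further on. Pln has 159 bases on chromosome 10 (53343864 to 53344022), which make 52 codons before the stop. Sln has 96 bases on chromosome 9 (53853473 to 53853568), which make 31 codons. Capitals mark the start and the stop codon.
Pln: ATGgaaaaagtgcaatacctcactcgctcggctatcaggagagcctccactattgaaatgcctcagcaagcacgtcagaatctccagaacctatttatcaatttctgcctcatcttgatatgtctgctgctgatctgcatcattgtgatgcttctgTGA
Sln: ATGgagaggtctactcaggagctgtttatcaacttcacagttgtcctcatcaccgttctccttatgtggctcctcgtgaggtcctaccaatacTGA

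RefSeq (GRCm38.p6) promoter windows were matched for 8 of the 10 genes, all but Atp2a2 and Sln. The windows of Pln, Ryr2 and Slc8a1 are printed because Pln and Ryr2 fell and Slc8a1 rose in KO-8 below. Each window ends just before the annotated start of the gene and runs 5′ to 3′ on the strand of the gene, with up to 250 bases. Capitals mark 3 motifs searched on both strands: the GC box GGGCGG, the E-box CANNTG and the TATA box TATAAA. Among 32851 promoters, windows with a GC box made up 32.7%, with an E-box 66.2% and with a TATA box 12.4%.
Pln, chr10:53337436-53337666, plus strand: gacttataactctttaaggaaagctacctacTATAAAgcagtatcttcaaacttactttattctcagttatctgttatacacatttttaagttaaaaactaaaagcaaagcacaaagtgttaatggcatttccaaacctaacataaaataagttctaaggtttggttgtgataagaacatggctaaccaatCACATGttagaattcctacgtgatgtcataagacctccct
Ryr2, chr13:12106946-12107195, minus strand: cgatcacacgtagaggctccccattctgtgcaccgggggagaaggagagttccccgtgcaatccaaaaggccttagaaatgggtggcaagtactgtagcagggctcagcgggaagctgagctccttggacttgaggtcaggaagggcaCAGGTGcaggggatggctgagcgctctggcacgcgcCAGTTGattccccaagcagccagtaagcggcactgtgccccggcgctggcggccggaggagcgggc
Slc8a1, chr17:81738388-81738637, minus strand: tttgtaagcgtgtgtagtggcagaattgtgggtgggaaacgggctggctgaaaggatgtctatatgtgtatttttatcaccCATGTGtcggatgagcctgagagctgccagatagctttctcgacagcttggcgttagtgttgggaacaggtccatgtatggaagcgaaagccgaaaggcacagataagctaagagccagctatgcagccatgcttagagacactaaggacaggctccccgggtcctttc
In these letters Pln had 1 TATA box and 1 E-box, Ryr2 had 2 E-boxes and Slc8a1 had 1 E-box, and none of the 3 windows held a GC box. The windows of Casq1, Hrc and Jph2 each held 1 GC box. An E-box was present in all 8 windows. These matches are a description of letters and show no binding.

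Per kilobase of exon, the scale on which genes can be set beside each other, Pln and Atp2a2 had the highest levels, with 1250.3 and 1038 CPM per kb as the mean over the 19 libraries. Hrc followed with 319 and Casq2 with 257 CPM per kb. Ryr2 had 92.4, Slc8a1 47.7, Jph2 40.6 and Cacna1c 14.6 CPM per kb. Sln and Casq1 were near the bottom, with 2.36 and 1.80 CPM per kb. By this measure the mRNAs for the SR pump and for phospholamban were more abundant than those for the release channel, the L-type channel and the exchanger. The measure divides by the length of all annotated exons of a gene, not by that of the transcript expressed.

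The 8-week comparison gave the level of each gene early after the loss of Mpc1. Atp2a2, Pln and Ryr2 fell in KO-8 and Slc8a1 rose, and the WT and KO libraries did not overlap for any of these 4 genes. Of the 10 genes, 9 passed the filter on low counts and were tested, all but Sln. Called in either direction were 4 of the 9, beside 8.21% of the 15173 genes tested. Called lower were 3 of the 9, beside 3.91% of all genes, and called higher was 1 of the 9, beside 4.3%. Without overlap were the same 4 genes, beside 10.9% of all genes, 5.85% lower and 5.02% higher. At an unadjusted p under 0.05, 5 of the 9 passed, beside 23.2% of all genes. In tissue RNA fewer cells of a type and less RNA per cell cannot be told apart. The median log2 fold change of the 9 was 0.04, against 0.00 for all genes. In the fit to all 19 libraries, where both times share an estimate of the spread, none of the 4 calls at 8 weeks was kept (adjusted p from 0.596 to 0.815). Over all genes this fit called 0.0903% lower and 0.11% higher, in place of 3.91% and 4.3%.

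The 16-week comparison asked the same late after induction. Atp2a2 fell and was the only one of the 10 genes to be called, all 10 having passed the filter. This was 1 of 10 in either direction, beside 2.83% of the 12597 genes tested, and 1 of 10 lower, beside 0.945%. None was called higher, beside 1.88%. At an unadjusted p under 0.05, 5 of the 10 passed (25.4% of all genes). Hrc, Pln and Ryr2 had log2 fold changes between -0.90 and -0.73 with adjusted p from 0.0518 to 0.0741 in edgeR's quasi-likelihood test, short of the threshold. For Atp2a2 and Ryr2 the groups did not overlap, KO being lower. Of all genes 4.68% did not overlap, and 2.56% were lower in KO without overlap. The median log2 fold change of the 10 was -0.11, against 0.01 for all genes.

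The count of 1 at 16 weeks moved with the fit. DESeq2, limma-voom with library quality weights and the fit to all 19 libraries each called 4 of the genes lower (Atp2a2, Pln, Ryr2 and Hrc). Over all genes these fits also called more, with 4.65%, 10.5% and 9.33% lower in place of 0.945%. The last 2 of these fits called Jph2 higher, beside 9.5% and 11.2% of all genes. The 4 calls were made without a filter on low counts as well. There 377 of 29064 genes were called lower (1.3%), against 119 of 12597 with the filter. When single libraries were omitted, the count of lower genes was 4 without the first or the fifth KO-16 library (6.28% and 6.48% of all genes) and 0 in the other 8 cases. In those 8 cases 29 to 214 genes passed in all. No gene of the list was called when the 18S share entered as a covariate, or without the 2 libraries that had Y-linked transcripts. Over all genes these settings called 28 and 10. Common coefficients of variation were 0.228 at 16 weeks and 0.093 at 8 weeks, so a change of a given size was harder to call at the later time. In counts simulated at this spread, 9.0% of 1.5-fold and 40.3% of 2-fold changes were recovered at 16 weeks, against 73.1% and 97.0% at 8 weeks. The simulation gave WT and KO the same spread for each gene and drew genes independently. All genes of the list but Sln and Casq1 spread more in KO-16 than in WT-16. For Atp2a2 the coefficients of variation were 35.9% in KO-16 and 5.61% in WT-16. The simulated rates may therefore not hold for the 16-week libraries.

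Markers of other cell types were followed in the same comparisons. The 5 fibroblast markers summed to 327 to 415 CPM in WT-16 against 421 to 979.8 CPM in KO-16, and to 408 to 457 CPM in WT-8 and 459 to 736 CPM in KO-8. In edgeR 1 of the 4 tested at 16 weeks and 2 of the 5 tested at 8 weeks were called higher. At an unadjusted p under 0.05, Col1a1, Dcn and Lum were higher at both times and Pdgfra at 8 weeks. Pdgfra at 16 weeks and Tcf21 at 8 weeks did not pass. The 5 endothelial markers summed to 416 to 463 CPM in WT-16 and 451 to 669 CPM in KO-16, and to 473 to 519 CPM in WT-8 and 532 to 603 CPM in KO-8. At 16 weeks 1 of these 5 was called higher and at 8 weeks 2 were. All 5 were higher at both times at an unadjusted p under 0.05 in edgeR. Over all genes 25.4% passed so at 16 weeks and 23.2% at 8 weeks, in either direction. The log2 fold changes of the 5 were 0.35 to 0.73 at 16 weeks and 0.15 to 0.26 at 8 weeks. The 7 smooth muscle markers summed to 809.6 to 920.4 CPM in WT-16 and 748 to 1069 CPM in KO-16, and to 748 to 794 CPM in WT-8 and 789 to 980.4 CPM in KO-8. Called higher were 1 of these 7 at 16 weeks and 4 at 8 weeks, and no marker of the 3 lists was called lower. At an unadjusted p under 0.05, Myh11 was also higher at 16 weeks, and Smtn was lower at 8 weeks. The sums of the groups overlapped at 16 weeks for the endothelial and the smooth muscle list. The 4 erythroid markers summed to 52.4 to 130.1 CPM in WT-16 and 47.4 to 1114 CPM in KO-16, and to 424 to 943 CPM in WT-8 and 252 to 560.5 CPM in KO-8. Of these only Hbb-bt, a beta globin, was called, at 8 weeks and lower. All 4 were lower at 8 weeks at an unadjusted p under 0.05 in edgeR, with log2 fold changes of -0.79 to -0.70. At 16 weeks the 4 had log2 fold changes of 1.76 to 2.72 and passed at an unadjusted p under 0.05 alone. The 5 macrophage markers summed to between 70.9 and 114 CPM over all libraries, with none called and only Cd68 under an unadjusted p of 0.05, at both times. None of the markers in these 5 lists was at 0 in all libraries of a group.

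The 10 cardiomyocyte markers summed to 110089 to 126343 CPM in WT-16 and 86253 to 119341 CPM in KO-16, and to 103046 to 106548 CPM in WT-8 and 100901 to 107388 CPM in KO-8. Most of the sum was Ttn, which encodes titin, with means of 73421 CPM in WT-16 and 63746 CPM in KO-16, and Myh6, the alpha myosin heavy chain, with 24784 and 17311 CPM. The 16-week log2 fold changes of the 10 ran from -0.51 for Myh6 to 0.52 for Mybpc3, myosin binding protein C, with 5 of the 10 above 0 and none called. At an unadjusted p under 0.05, 3 passed, Myh6 and the troponin Tnni3 lower and Mybpc3 higher. At 8 weeks Actn2, alpha-actinin 2, was called higher (log2 fold change 0.29, edgeR adjusted p = 0.0137) and none lower. The part of all these cells in the lower pump and channel levels was not tested.

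**Figure D1:**
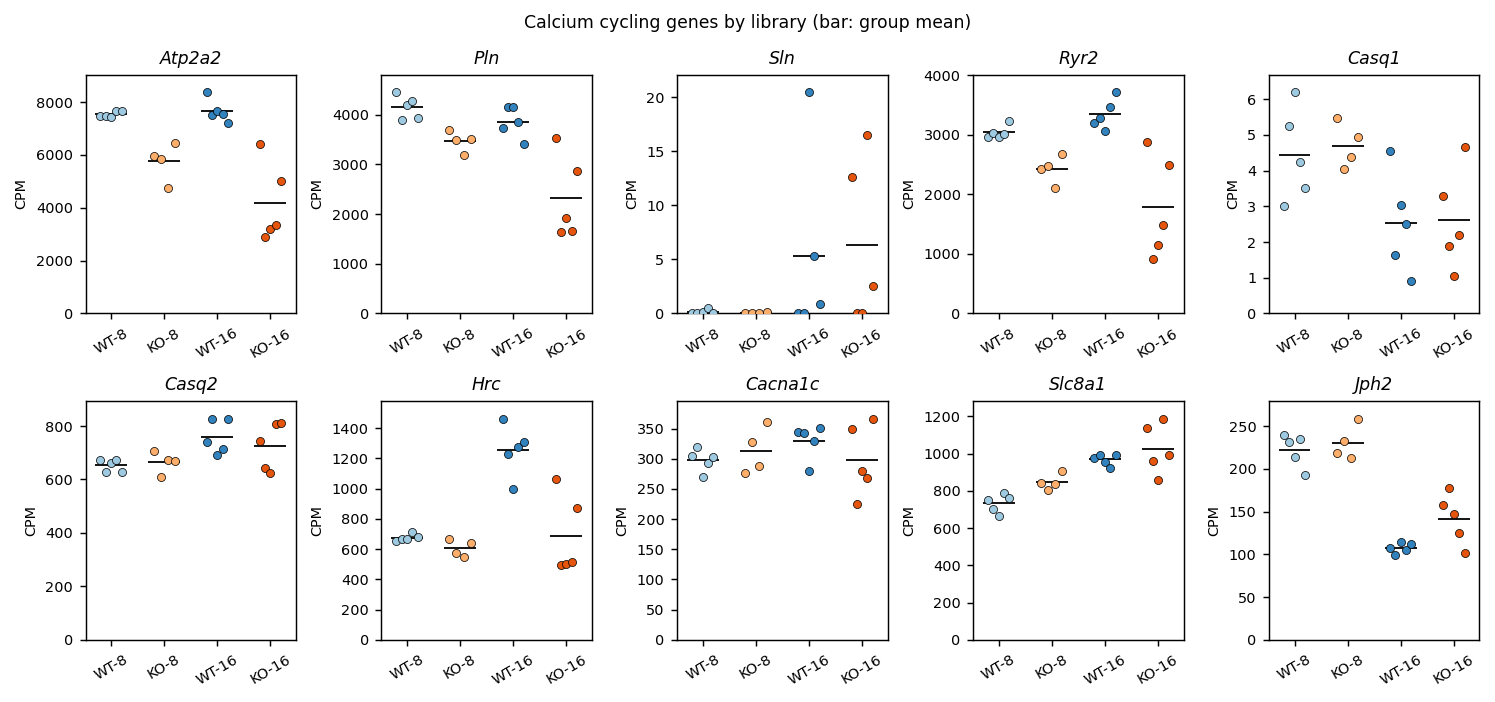
Level in CPM (vertical axis, linear from 0) of each of the 10 calcium cycling genes in every library of the 4 groups; each point is a library and the bar is the group mean. Atp2a2, Pln and Ryr2 lie lower in KO-8 than in WT-8 without overlap, and in KO-16 the 5 libraries spread widely, Atp2a2 from 2895 to 6408 CPM.

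Atp2a2 (ENSMUSG00000029467, GRCm38 chromosome 5, 122453513 to 122502225) encodes SERCA2, the pump that refills the SR. In WT-8 it had 7486, 7470.4, 7431, 7670.3 and 7676 CPM, and in KO-8 5949.6, 5866, 4752 and 6456 CPM. The highest KO-8 library lay below the lowest WT-8 library. The means were 7547 ± 117 (SD, n = 5) and 5756 ± 718 CPM (SD, n = 4), a log2 fold change of -0.38 (SE 0.07, edgeR adjusted p = 0.00555).

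At 16 weeks Atp2a2 had 8377, 7507, 7653, 7561 and 7220.0 CPM in WT-16 and 6408, 2895, 3197, 3349 and 5012 CPM in KO-16. All 5 KO-16 libraries were below all WT-16 libraries, replicates 1 and 5 least so. The means were 7664 ± 430.2 and 4172 ± 1497 CPM (SD, n = 5 each), and Atp2a2 was lower by 1.83-fold (log2 fold change -0.87, SE 0.21, edgeR adjusted p = 0.0461). Leaving out 1 library at a time moved the adjusted p between 0.00251 and 0.123, and the call was kept in 2 of the 10 cases, without replicate 1 or without replicate 5 of KO-16. Over these cases the log2 fold change stayed between -1.08 and -0.77. When the 18S share entered as a covariate it was -0.81 (adjusted p = 0.129), and without the libraries with Y-linked transcripts it was -0.83 (adjusted p = 0.194). Within the 6 libraries over 20% 18S, 4 WT and 2 KO, it was -0.86 (adjusted p = 0.0508).

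Pln (ENSMUSG00000038583, chromosome 10, 53337667 to 53345987) encodes phospholamban, which slows the pump until it is phosphorylated. It had 4452, 3899.7, 4189, 4268 and 3935 CPM in WT-8 and 3682, 3489, 3181 and 3509 CPM in KO-8. The groups did not overlap, and the means of 4149 ± 232 (SD, n = 5) and 3465 ± 208 CPM (SD, n = 4) gave a log2 fold change of -0.25 (SE 0.06, edgeR adjusted p = 0.0175).

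In WT-16 Pln had 3731, 4163, 4146, 3849 and 3407 CPM, and in KO-16 3535, 1648, 1928, 1666 and 2859.8 CPM. Replicate 1 of KO-16 lay within the WT range and the other 4 lay below it. The means were 3859 ± 314 and 2328 ± 837 CPM (SD, n = 5 each), with a log2 fold change of -0.73 (SE 0.21) that did not pass the threshold in edgeR (adjusted p = 0.0685). It was -0.92 (adjusted p = 0.00539) when replicate 1 of KO-16 was left out, and without replicate 5 it was -0.81 (adjusted p = 0.0328).

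Sln (ENSMUSG00000042045, chromosome 9, 53850164 to 53854560) encodes sarcolipin, the pump inhibitor of atria and of skeletal muscle. At 8 weeks it had 0, 0, 0.175, 0.521 and 0.0519 CPM in WT and 0, 0, 0 and 0.112 CPM in KO, at most 13 read pairs in a library, and was not tested. The 3 read pairs that a count of 0 allows correspond to 0.0963 to 0.129 CPM in the 5 libraries of that time with none. In WT-16 Sln had 0, 0, 20.4, 5.33 and 0.920 CPM, and in KO-16 12.6, 0, 0, 16.5 and 2.49 CPM. High and zero libraries occurred in both groups, and the log2 fold change was -0.07 (SE 1.20, edgeR adjusted p = 0.978). The limits of the 4 libraries at 0 were 0.0837 to 0.759 CPM and cover counting error only.

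The 16-week libraries with Sln were also those highest in the atrial myosin light chains. Myl7, the atrial regulatory myosin light chain, had 87.8 and 15.7 CPM in replicates 3 and 4 of WT-16, which held 20.4 and 5.33 CPM of Sln. It had 34.2, 48.1 and 13.6 CPM in replicates 1, 4 and 5 of KO-16. Replicate 5 of WT-16, with 0.920 CPM of Sln, had 2.53 CPM of Myl7. In the 4 libraries without Sln, Myl7 had 0 CPM in both WT-16 and 0.558 and 0.617 CPM in both KO-16. Myl4, the atrial essential light chain, had 112 CPM in replicate 3 of WT-16 and 103 CPM in replicate 4 of KO-16, against 0.988 to 1.14 CPM in the same 4 libraries. Other genes of the 7 on the atrial marker list were also present where Sln was not. Kcnj3, an inward rectifier potassium channel, had 157 and 162 CPM in replicates 1 and 2 of WT-16, and Dkk3, a secreted glycoprotein, had 20.9 CPM in replicate 3 of KO-16. The sum over the 7 lay between 51.0 and 588.5 CPM at 16 weeks and between 62.5 and 103 CPM at 8 weeks, and much of it was Kcnj3, with group means of 64.1 to 147 CPM. Called at 8 weeks were Kcnj3 and Sbk2 lower and Dkk3 higher, and none of the 6 tested was called at 16 weeks (2 at an unadjusted p under 0.05, Kcnj3 and Sbk2). Bmp10, an atrial growth factor, had 26.8 CPM in replicate 4 of WT-16 and 349 CPM in replicate 4 of KO-16, and at most 0.281 CPM elsewhere. At 8 weeks it was at 0 in all KO libraries. By the smallest SD of the log2 ratio over all 19 libraries, the genes most like Sln were Myl4 (SD 0.64), Myl7 (0.88) and Ndufs5 (2.28).

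**Figure D2:**
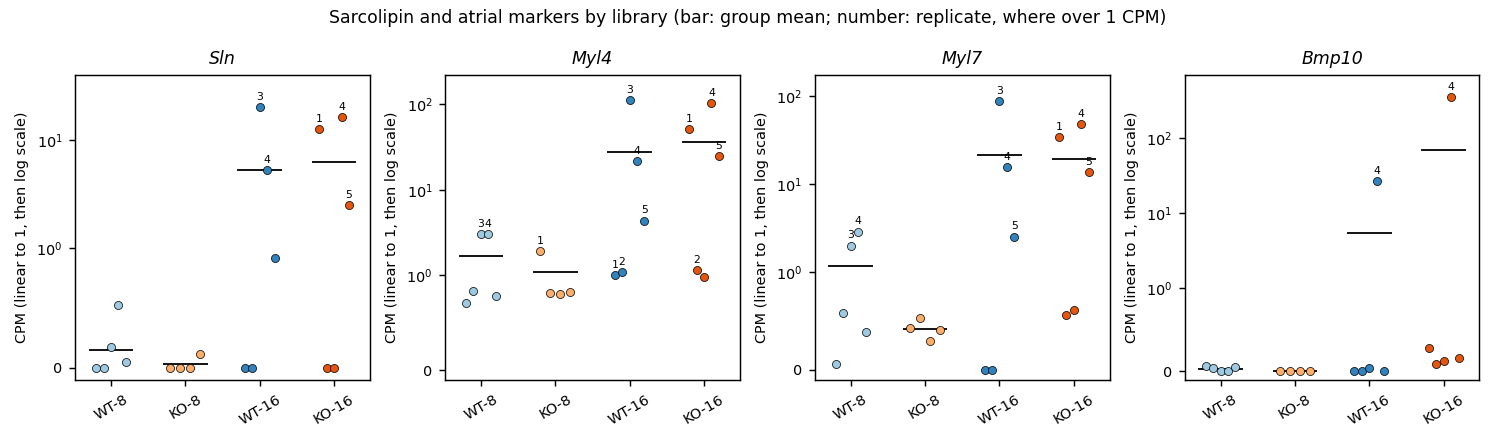
Level in CPM (vertical axis, linear up to 1 and logarithmic above) of Sln and of the atrial markers Myl4, Myl7 and Bmp10 in every library; numbers are replicates over 1 CPM and the bar is the group mean. Replicates 3 and 4 of WT-16 and 1, 4 and 5 of KO-16 are high in Sln, Myl4 and Myl7, and Bmp10 is high in replicate 4 of WT-16 and of KO-16.

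The libraries with the most Myl7 were replicate 3 of WT-16 and replicates 1 and 4 of KO-16. Without these 3, an alternative added after the data were seen, Atp2a2, Pln, Ryr2 and Hrc were all called lower at 16 weeks, beside 2.6% of all genes. Pln then had a log2 fold change of -0.80 (edgeR adjusted p = 0.0433), Ryr2 of -1.14 (adjusted p = 0.0437) and Hrc of -1.07 (adjusted p = 0.0180). Replicate 1 of KO-16, the library of its group with the most Mpc1, is among these 3. Leaving out that library alone gave the same 4 calls, beside 6.28% of all genes. The log2 fold changes were then -0.92 for Pln, -1.14 for Ryr2 and -1.07 for Hrc. The part of atrial transcripts in these calls was not tested.

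Ryr2 (ENSMUSG00000021313, chromosome 13, 11553102 to 12106945) encodes the ryanodine receptor of the heart, the channel that releases calcium from the SR. It had 2957, 3024, 2969, 3019 and 3224 CPM in WT-8 and 2426, 2482, 2098 and 2683 CPM in KO-8. All 4 KO libraries were lower than all WT libraries, with means of 3039 ± 108 (SD, n = 5) and 2422 ± 243 CPM (SD, n = 4) and a log2 fold change of -0.32 (SE 0.07, edgeR adjusted p = 0.00989).

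In WT-16 Ryr2 had 3205, 3275, 3061, 3467 and 3714 CPM, and in KO-16 2878, 915, 1153, 1481 and 2499 CPM. The groups did not overlap here either, with replicates 2, 3 and 4 of KO-16 well below replicates 1 and 5. Means were 3344 ± 253 and 1785 ± 859 CPM (SD, n = 5 each), and the log2 fold change of -0.90 (SE 0.27) did not pass the threshold (edgeR adjusted p = 0.0741). It was -1.14 (adjusted p = 0.00951) without replicate 1 of KO-16 and -1.06 (adjusted p = 0.0295) without replicate 5.

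Hrc (ENSMUSG00000038239, chromosome 7, 45335290 to 45338974) encodes the histidine-rich calcium binding protein of the SR lumen, which also binds the pump and triadin. In WT-8 it had 653, 664, 669.7, 711 and 679.5 CPM, and in KO-8 667, 574, 547 and 638 CPM. In KO-8, 3 of the 4 libraries were below the WT range, and the log2 fold change of -0.15 (SE 0.06) did not pass (edgeR adjusted p = 0.164). In WT-16 it had 1464, 1232, 995, 1277 and 1311 CPM, and in KO-16 1066, 496, 500.2, 516 and 869.8 CPM. In KO-16, 4 of the 5 libraries were below all WT-16 libraries, and replicate 1 was not. The means of 1256 ± 169.8 and 689.6 ± 263 CPM (SD, n = 5 each) gave a log2 fold change of -0.86 (SE 0.22), just short of the threshold (edgeR adjusted p = 0.0518). The earlier of the 2 deposited files of each 16-week library, used alone, gave -0.87 (adjusted p = 0.0410), and the later gave -0.84 (adjusted p = 0.0554). Within the 4 WT and 2 KO libraries over 20% 18S, Hrc was called (-0.91, edgeR adjusted p = 0.0495). Atp2a2 fell just short there with a nearly equal value (-0.86, edgeR adjusted p = 0.0508).

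The calsequestrins hold calcium in the SR, Casq2 in the heart and Casq1 mainly in fast skeletal muscle. Casq2 (ENSMUSG00000027861, chromosome 3, 102086415 to 102146514) had 653 ± 22.3 CPM in WT-8 (SD, n = 5), 665 ± 41.4 in KO-8 (n = 4), 760.0 ± 63.4 in WT-16 and 726 ± 88.8 in KO-16 (n = 5 each). Its libraries ran from 608 to 828 CPM, and the groups overlapped at both times. Neither the 8-week log2 fold change of 0.04 (SE 0.05, edgeR adjusted p = 0.746) nor the 16-week value of -0.06 (SE 0.12, adjusted p = 0.774) passed. The mRNAs for these lumenal proteins thus gave unlike values at 16 weeks, Hrc -0.86 and Casq2 -0.06 on the log2 scale. The difference between them was not tested.

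Casq1 (ENSMUSG00000007122, chromosome 1, 172209894 to 172219868) had 3.02, 5.24, 6.20, 4.25 and 3.50 CPM in WT-8 and 5.46, 4.04, 4.38 and 4.93 CPM in KO-8. In WT-16 it had 4.55, 1.63, 3.04, 2.50 and 0.920 CPM, and in KO-16 3.30, 1.90, 1.05, 2.20 and 4.65 CPM. The groups overlapped at both times, and the log2 fold changes of 0.12 (SE 0.18, edgeR adjusted p = 0.756) and -0.02 (SE 0.42, adjusted p = 0.978) did not pass. The lowest library, replicate 5 of WT-16, held 4 read pairs. Of 12 skeletal muscle markers, the myosin heavy chains Myh1, Myh2 and Myh4 were at most 0.499 CPM in any library. Myl1, a myosin light chain, had 4.35 to 23.6 CPM and Mybpc2, the fast myosin binding protein C, 4.81 to 18.8 CPM. The 12 summed to 22.9 to 33.1 CPM at 8 weeks and 10.4 to 31.6 CPM at 16 weeks, and none of those tested was called (Myl1 alone was under an unadjusted p of 0.05, at 8 weeks). The genes most like Casq1 by the SD of the log2 ratio over 19 libraries were Klhl30 (0.44), Vtn (0.47) and Gpt (0.49).

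Cacna1c (ENSMUSG00000051331, chromosome 6, 118587240 to 119196418) encodes the pore of the L-type calcium channel, where calcium enters the cell. It had 298 ± 18.3 CPM in WT-8 (SD, n = 5), 313 ± 39.0 in KO-8 (n = 4), 329 ± 28.7 in WT-16 and 298 ± 59.0 in KO-16 (n = 5 each). Single libraries had 269.9 to 319.6 CPM in WT-8, 276 to 361 CPM in KO-8, 279.8 to 350.5 CPM in WT-16 and 225 to 367 CPM in KO-16, and the groups overlapped at both times. Neither the 8-week log2 fold change of 0.08 (SE 0.08, edgeR adjusted p = 0.571) nor the 16-week value of -0.14 (SE 0.14, adjusted p = 0.544) passed.

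Slc8a1 (ENSMUSG00000054640, chromosome 17, 81373105 to 81738377) encodes the sodium-calcium exchanger NCX1, the main route by which calcium leaves the cardiomyocyte. It had 752, 701, 667, 786 and 762 CPM in WT-8 and 842, 802, 836 and 908 CPM in KO-8. Every KO-8 library was above every WT-8 library. The means were 734 ± 48.4 (SD, n = 5) and 847 ± 44.4 CPM (SD, n = 4), a log2 fold change of 0.22 (SE 0.06, edgeR adjusted p = 0.0371). The call was kept in 3 of 9 cases when 1 library was left out, with adjusted p from 0.0402 to 0.0963. It was lost without replicate 1, 2 or 3 of WT-8 or replicate 1, 3 or 4 of KO-8.

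At 16 weeks Slc8a1 had 978, 993, 955, 923 and 992 CPM in WT and 1135, 961, 861, 1188 and 989.7 CPM in KO. In KO-16, 2 libraries were above the WT range, 1 was below it and 2 were within it. The log2 fold change was 0.09 (SE 0.12, edgeR adjusted p = 0.661), and it was -0.03 without the 3 libraries with the most Myl7.

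Jph2 (ENSMUSG00000017817, chromosome 2, 163336242 to 163397993) encodes junctophilin 2, which tethers the SR to the T-tubule. It had 239, 231, 214, 235 and 193 CPM in WT-8 and 218, 233, 212 and 259 CPM in KO-8, overlapping groups with a log2 fold change of 0.06 (SE 0.07, edgeR adjusted p = 0.658). In WT-16 it had 107, 99.3, 115, 105 and 112 CPM, and in KO-16 158, 178, 147, 124 and 101 CPM. In KO-16, 4 of the 5 libraries lay above the WT-16 range, and replicate 5 lay within it. The log2 fold change of 0.40 (SE 0.14) did not pass (edgeR adjusted p = 0.107), and without replicate 5 of KO-16 it was 0.50 (adjusted p = 0.0219).

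**Figure D3:**
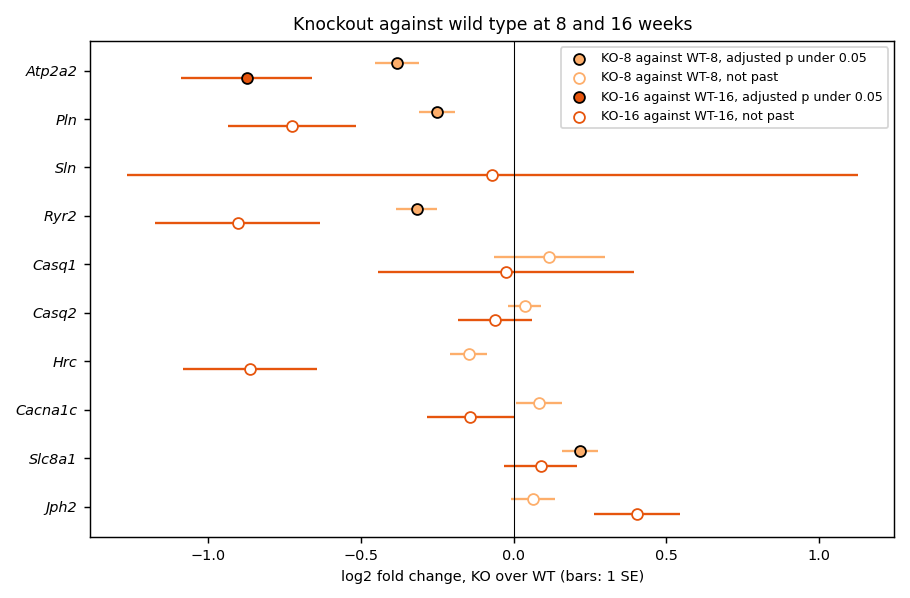
Log2 fold change of KO over WT (horizontal axis, bars 1 SE) for each gene at 8 weeks (light) and 16 weeks (dark), filled where the edgeR adjusted p was under 0.05. Atp2a2, Pln, Ryr2 and Slc8a1 are filled at 8 weeks and Atp2a2 alone at 16 weeks, where the bars are wider; Sln has no value at 8 weeks.

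Whether the knockout effect differed between the times was tested in a fit to all 19 libraries. No gene of the 10 passed, and none of the 15503 genes tested did (0% called). At an unadjusted p under 0.05, 2000 genes passed, 12.9% of those tested, and 1 of the 10, Hrc. DESeq2 called 30 genes and limma-voom with library quality weights 527, among them 0 and 4 of the 10. Limma-voom with a weight per group called 0. The 16-week effect minus the 8-week effect for Hrc was -0.71 on the log2 scale (SE 0.25, edgeR adjusted p = 0.313). For Atp2a2 it was -0.49 (SE 0.24, adjusted p = 0.396), for Pln -0.47 (SE 0.24, adjusted p = 0.403), for Ryr2 -0.58 (SE 0.31, adjusted p = 0.422) and for Jph2 0.35 (SE 0.17, adjusted p = 0.390). The larger fold changes of these genes at 16 weeks were thus not shown to differ from those at 8 weeks. Without replicate 1 of KO-16, 613 genes passed in edgeR in either direction, in place of 0. Among them were 3 of the 10, in the lower direction: Hrc (-0.92, adjusted p = 0.0168), Atp2a2 (-0.69, adjusted p = 0.0423) and Pln (-0.67, adjusted p = 0.0477). For DESeq2, limma-voom and this omission the share of all genes called lower was not worked out. The counts of the 10 in these settings thus cannot be set against a background share.

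Between the wild types of both times 4 of the 10 genes did not overlap, beside 39.1% of the 15503 genes. Hrc had 995 to 1464 CPM in WT-16 and 653 to 711 in WT-8. Jph2 had 99.3 to 115 CPM in WT-16 and 193 to 239 in WT-8. Slc8a1 had 923 to 993 CPM in WT-16 and 667 to 786 in WT-8, and Casq2 had 693 to 828 and 629 to 673 CPM. The other 6, Atp2a2 and Pln among them, overlapped. The times also differ in 18S share and in the number of deposited files, 2 per library at 16 weeks and 1 at 8 weeks, so age and sequencing cannot be told apart in these levels.

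Ratios within a library do not depend on its total or its scaling factor. The CPM of Slc8a1 were 8.98% to 10.2% of those of Atp2a2 in WT-8 and 13.7% to 17.6% in KO-8. At 16 weeks they were 11.7% to 13.7% in WT, and in KO 17.7%, 33.2%, 26.9%, 35.5% and 19.7%. The ratio of exchanger to pump mRNA was higher in every KO library than in every WT library of its time. The ratio is not independent of the tests above, in which both genes were called at 8 weeks and Atp2a2 alone at 16 weeks. At 8 weeks Slc8a1 was higher and Atp2a2 lower in KO without overlap. The ratio of that time was thus bound to separate, and its p adds no support. The mean log2 ratio was higher in KO by 0.61 (SE 0.09) at 8 weeks, a 1.52-fold change, with n = 5 and 4 (exact 2-sided permutation test, p = 0.00794, adjusted p = 0.0317 over 8 tests). At 16 weeks it was higher by 1.02 (SE 0.20), a 2.03-fold change, with n = 5 each (exact 2-sided permutation test, p = 0.00794, adjusted p = 0.0317). This p is the smallest that either design can give. Without the libraries with Y-linked transcripts the 16-week difference was 0.93 and the adjusted p 0.114 in the exact permutation test. The 4 libraries against 4 that remain cannot give a p under 0.0286. Leaving out 1 library at 8 weeks gave the smallest p the test allows each time, 0.0286 or 0.0179 (adjusted p 0.114 or 0.0714), which tells nothing of stability. At 16 weeks the adjusted p was 0.0317 without a KO library and 0.0635 without a WT library.

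For the ratio of inhibitor to pump no difference passed. Pln had 51.3% to 59.5% of the CPM of Atp2a2 in WT-8 and 54.4% to 66.9% in KO-8. At 16 weeks it had 44.5% to 55.4% in WT and 49.7% to 60.3% in KO. The groups overlapped, with log2 differences of 0.14 (SE 0.07) at 8 weeks and 0.15 (SE 0.08) at 16 weeks (exact 2-sided permutation test, p = 0.0873 and adjusted p = 0.175 at each time). Over all 19 libraries Pln was also the second nearest gene to Atp2a2 by the SD of the log2 ratio (0.14), between Pcnt (0.13), a centrosome protein, and Tbc1d4 (0.15), a regulator of glucose transporter traffic. Pcnt had log2 fold changes of -0.32 (edgeR adjusted p = 0.0276) at 8 weeks and -0.67 (adjusted p = 0.0461) at 16 weeks. Tbc1d4 had -0.39 (edgeR adjusted p = 0.0167) and -0.86 (adjusted p = 0.0278). Pcnt and Tbc1d4 were picked for following Atp2a2 over these same libraries. Their fold changes were thus bound to resemble those of Atp2a2, and their p-values add no support. The ratios of Casq1 to Casq2 and of Sln to Pln did not pass at either time (exact permutation test, adjusted p from 0.762 to 0.778).

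**Figure D4:**
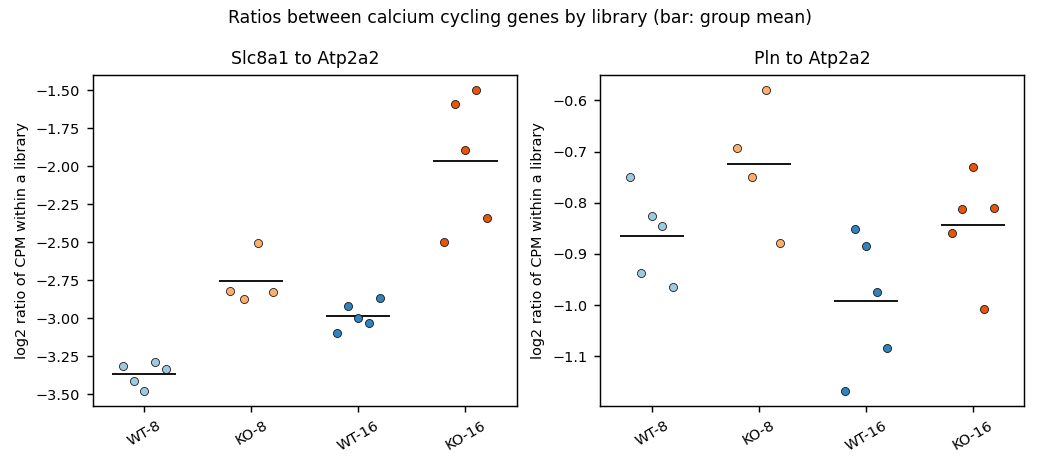
Log2 ratio of CPM within a library (vertical axis) for Slc8a1 to Atp2a2 and Pln to Atp2a2 in the 4 groups; each point is a library and the bar is the group mean. Slc8a1 to Atp2a2 is higher in KO at both times without overlap, by 0.61 and 1.02, while Pln to Atp2a2 overlaps at both times. The separation of Slc8a1 to Atp2a2 at 8 weeks follows from that of each gene alone.

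The rest of the pathway was followed in a list of 78 further calcium genes, of which 75 were matched. At 8 weeks 69 were tested, and 6 were called lower (3.91% of all genes) and 3 higher (4.3% of all genes). Their median log2 fold change was -0.01, against 0.00 over all genes. At 16 weeks 67 were tested, and edgeR called none lower (0.945% of all genes) and 2 higher (1.88% of all genes), with a median of 0.02 against 0.01. At an unadjusted p under 0.05, 21 of the 67 passed in either direction, beside 25.4% of all genes, and DESeq2 called 6 lower and 4 higher, beside 4.65% and 5.39% of all genes. For the difference between times edgeR called none of 70, and DESeq2 called none. At an unadjusted p under 0.05, 9 of the 70 passed in edgeR, beside 12.9% of all genes. Limma-voom with library quality weights called 5 lower and 1 higher, where 527 genes were called in either direction. Its share of all genes in each direction was not worked out. The fit to all 19 libraries called none of the list at 8 weeks (0.0903% of all genes lower and 0.11% higher). At 16 weeks it called 13 lower and 6 higher, beside 9.33% and 11.2% of all genes.

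Among the auxiliary subunits of the L-type channel, Cacnb2, the main beta subunit of the heart, fell from 107 ± 10.2 CPM in WT-8 (SD, n = 5) to 79.8 ± 4.04 CPM in KO-8 (n = 4), a log2 fold change of -0.41 (edgeR adjusted p = 0.00249). Cacna2d1, the alpha2delta subunit, fell from 217 ± 9.21 to 182 ± 6.07 CPM (log2 fold change -0.24, adjusted p = 0.00927). Cacnb1, the beta subunit of skeletal muscle, rose from 2.87 ± 0.121 to 3.95 ± 0.171 CPM (log2 fold change 0.47, adjusted p = 0.00859). The pore gene Cacna1c passed in neither comparison. At 16 weeks Cacna2d1 had a log2 fold change of -0.52 (adjusted p = 0.122) and Cacnb1 of 0.75 (adjusted p = 0.123).

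Of the release channels, Itpr1, an inositol trisphosphate receptor, fell from 101 ± 6.93 to 84.0 ± 1.32 CPM at 8 weeks (log2 fold change -0.25, edgeR adjusted p = 0.0155). Ryr3, the minor ryanodine receptor, rose from 1.40 ± 0.362 to 3.27 ± 0.984 CPM, while the far more abundant Ryr2 fell. The 8-week log2 fold change of Ryr3 was 1.24 (SE 0.23, adjusted p = 0.00465). Its means were 2.32 CPM in WT-16 and 7.82 CPM in KO-16, and its 16-week value was 1.77 (SE 0.49, adjusted p = 0.0623). Trdn, which anchors calsequestrin to the ryanodine receptor, had a log2 fold change of -0.68 at 16 weeks (adjusted p = 0.0940).

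Rcn3, reticulocalbin 3, a calcium binding protein of the secretory pathway, was called higher at both times. It rose from 11.6 ± 1.33 to 15.9 ± 1.83 CPM at 8 weeks (log2 fold change 0.46, edgeR adjusted p = 0.00927) and from 7.93 ± 1.10 to 18.1 ± 6.79 CPM at 16 weeks (log2 fold change 1.19, adjusted p = 0.0301). Under omission of 1 library the 16-week call was kept in 3 of 10 cases, without replicate 3 of WT-16 or replicate 1 or 5 of KO-16, and the adjusted p reached 0.0894. The groups did not overlap at either time. Rcn3 is expressed in fibroblasts, and of the 5 fibroblast markers Col1a1 was called higher at both times, by 0.81 at 8 weeks (edgeR adjusted p = 0.000994) and 2.03 at 16 weeks (adjusted p = 0.0308) on the log2 scale. Lum was called at 8 weeks only, with 0.87 at 16 weeks (edgeR adjusted p = 0.0571). Dcn and Pdgfra were called at neither time. At 16 weeks Dcn had 0.77 (adjusted p = 0.0512) and Pdgfra 0.09 (adjusted p = 0.709). Tcf21 was not called at 8 weeks and not tested at 16 weeks. The part of fibroblasts in the Rcn3 result was not tested.

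Among calcium-dependent kinases and phosphatases, Camk2a fell from 17.2 ± 0.622 to 12.5 ± 2.41 CPM at 8 weeks (log2 fold change -0.45, edgeR adjusted p = 0.0168) and Camk2b from 4.62 ± 0.518 to 3.29 ± 0.471 CPM (-0.48, adjusted p = 0.0250). Ppp3cb, a catalytic subunit of calcineurin, fell from 49.6 ± 1.82 to 43.5 ± 1.49 CPM (-0.18, adjusted p = 0.0401). When single libraries were left out, the Camk2b call was kept in 4 of 9 cases and lost without replicate 2 or 3 of WT-8 or replicate 2, 3 or 4 of KO-8 (adjusted p up to 0.0735). The Ppp3cb call was kept in 1 of 9 cases, without replicate 4 of KO-8 (adjusted p up to 0.110 otherwise). Rcan1, a calcineurin inhibitor whose transcription calcineurin itself drives, rose at 16 weeks. Its mean was 38.7 ± 9.48 CPM in WT-16 and 142 ± 109 CPM in KO-16 (SD, n = 5 each), and its log2 fold change was 1.89 (edgeR adjusted p = 0.0494). Its groups overlapped, 3 of the 5 KO-16 libraries being above the WT range, and the call was kept in 2 of 10 cases, those without the first or the fifth KO-16 library (adjusted p up to 0.123 otherwise). At 8 weeks Rcan1 had a log2 fold change of -0.15 (adjusted p = 0.540).

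The groups of 4 genes of the wider list did not overlap at 16 weeks, 2 lower (2.56% of all genes) and 2 higher (2.12% of all genes). Apart from Rcn3 they were Camk2d (log2 fold change -0.41, edgeR adjusted p = 0.0520), Mtm1 (-0.63, adjusted p = 0.0566) and Calm2, and were named after their values were seen. Camk2d encodes the main calcium/calmodulin kinase of the heart. The SR pump regulators S100a1 and Ppp1r3a had log2 fold changes of 0.59 (adjusted p = 0.0530) and -0.80 (adjusted p = 0.0851). No gene for store-operated entry or mitochondrial calcium uptake was called at either time, with 4 and 8 of them tested at 16 weeks and 4 and 9 at 8 weeks. Their log2 fold changes at 16 weeks lay between 0.02 and 0.43 and between -0.34 and 0.36.

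**Figure D5:**
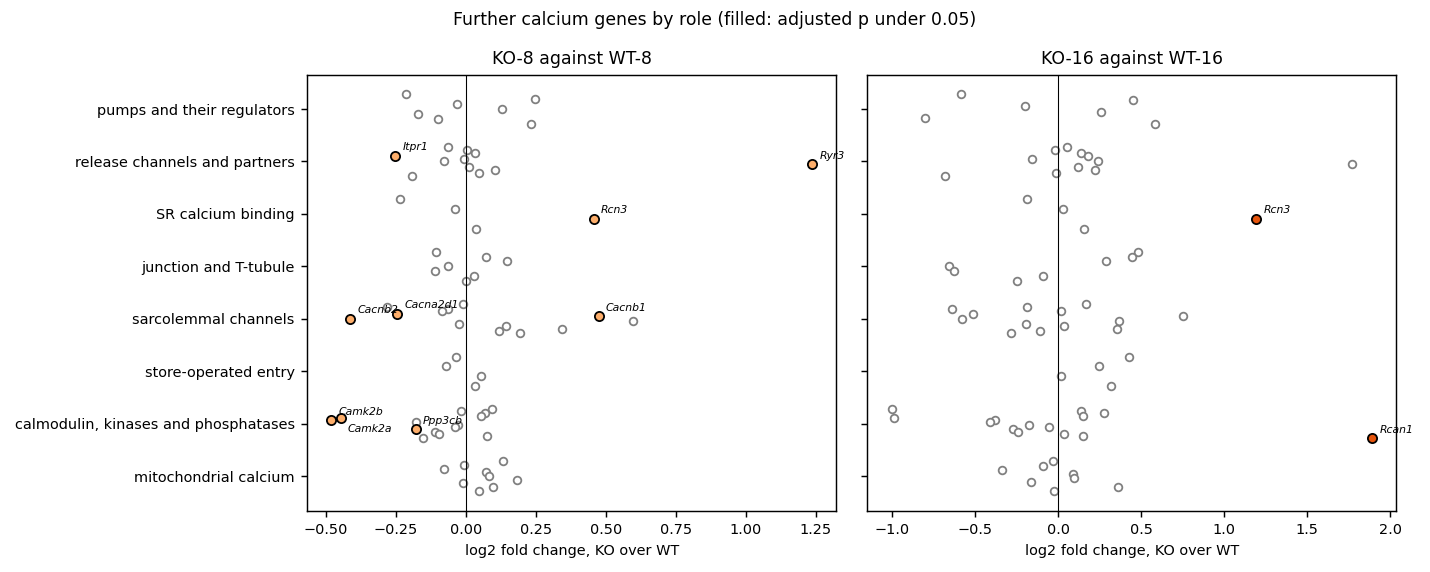
Log2 fold change of KO over WT (horizontal axis) for the further calcium genes in rows by role, at 8 weeks on the left and 16 weeks on the right; filled points passed the edgeR test and are named. At 8 weeks 9 of 69 are filled and at 16 weeks 2 of 67, Rcn3 and Rcan1.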

How the data were processed

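RNA of mouse ventricle was depleted of ribosomal RNA and made into stranded paired-end libraries, per the labels' protocols. The deposited values are whole-number counts of read pairs per gene, made by the authors with featureCounts 1.6.3 in paired, reverse-stranded, largest-overlap mode on GRCm38 with Ensembl 96, per the file headers. The submitters' processing notes list STAR, RSEM, SAMtools, FastQC and cutadapt 1.16, with no role given. Symbols came from GENCODE M21, which matched 55536 of 55536 identifiers with the same coordinates. The 16-week samples had 2 files each, which were summed; the chi-square per gene was 1.34 to 3.15 within such a pair and 6.306 or more between libraries of a group.

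CPM used TMM factors from all 19 libraries (0.455 to 1.476). Each time was tested alone with edgeR 4.0.16 (quasi-likelihood, filterByExpr) in R 4.3.3, with the Benjamini-Hochberg threshold at 0.05. An earlier analysis of these data pooled both times. Each time was fitted alone here because their spread differs, and the pooled fit is an alternative. The SE is the size of the log2 fold change divided by the root of the F statistic. Log2 ratios had a prior count of 2 and exact permutation tests adjusted over 8 tests. The alternatives were RLE factors, other filters, DESeq2 1.42.0, limma-voom 3.58.1, rRNA or mitochondrial genes left out, single files, the 18S share as a covariate, and libraries left out. After the data were seen, leaving out libraries over 20 CPM Myl7 was added.

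Members and lists were chosen with earlier results of these data known. All members are described. Genes of the wider list are named where called (up to 4 per role), otherwise up to 2 per role by value. The genes most like Atp2a2, Sln and Casq1 are the 3 with at least 10 CPM and the smallest SD of the log2 ratio. The fits were tested on simulated data, where 2 of 92 calls at 16 weeks and 8 of 188 at 8 weeks were false. The simulation gave WT and KO the same spread for each gene and drew genes independently. These rates may thus not hold for the 16-week libraries, whose spread differed between WT and KO. Strit1, Erln and Spegnb had no match by symbol. Promoters and coding sequences came from RefSeq and GENCODE tables. Plots (matplotlib 3.10.9) and sums (pandas 2.3.3, numpy 2.4.6) were made in Python 3.11.15.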

Additional observations from a re-analysis of the deposited data

Results flagged for a closer look

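Each group of 4 or 5 libraries was checked for a library far from the others, 40 groups for the genes and 16 for the ratios. With a normal spread, chance sets apart about 1 in 20 groups, a rate that does not cover Sln with its zeros. There were 4 such libraries. Sln was at 20.4 CPM in replicate 3 of WT-16, where the next library had 5.33 CPM. Sln was at 0.112 CPM in replicate 4 of KO-8, 3 read pairs, where the other 3 libraries had none. With the others at 0, any count would have been set apart. Ryr2 was at 3224 CPM in replicate 5 of WT-8, where the next library had 3024 CPM. The log2 ratio of Slc8a1 to Atp2a2 was -2.51 in replicate 3 of KO-8, where the next was -2.82.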

How the results depend on the processing

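At 16 weeks 356 genes passed in the 16-week libraries, with 1 of the 10 calcium cycling genes lower. Without a filter 1034 genes passed, with 4 of the 10 lower and 5 of the wider list lower and 4 higher. DESeq2 gave 1166, 4, 6 and 4. Limma-voom with library quality weights gave 2514 genes, 4 of the 10 lower and 1 higher with a median of -0.63, and 13 of the wider list lower and 5 higher. The fit to all 19 libraries gave 3181, 4 lower and 1 higher, and 13 and 6. Leaving out the libraries with Y-linked transcripts gave 10 genes, 0 of the 10 lower and 0 of the wider list higher, and the 18S covariate 28, 0 and 0. Without the libraries over 20 CPM Myl7 there were 801 genes, 4 of the 10 lower and 2 of the wider list lower. The earlier file alone gave 2 of the 10 lower, the later file 1 of the wider list higher, and the libraries over 20% 18S 1 higher. With 1 library left out these counts ran from 29 (without replicate 2 of WT-16) to 1856 genes (without replicate 5 of KO-16), 0 to 4 lower and 0 to 1 higher of the 10, and 0 to 10 lower and 0 to 5 higher of the wider list.

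Uncalled fold changes near 0 changed sign at 16 weeks. Sln was 0.24 with DESeq2, 0.11 with the 18S covariate, 2.49 in libraries over 20% 18S, and -0.76 to 1.84 with 1 library left out. Casq1 was 0.00499, 0.10 and 0.53 in the same settings and -0.28 to 0.22 with 1 library left out. Casq2 was 0.0216 with the 18S covariate and 0.0754 in libraries over 20% 18S, and Slc8a1 -0.0291 without the libraries over 20 CPM Myl7.

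At 8 weeks the fit to all 19 libraries gave 31 genes in place of 1245, with 0 lower and 0 higher in both lists. No filter gave 6 of the wider list higher. With 1 library left out, 3 of the 10 stayed lower each time, 0 to 1 were higher, and 3 to 5 of the wider list were higher. For the difference between times, no filter gave 43 genes and 1 of the wider list higher, DESeq2 30 genes, and limma-voom with quality weights 527 genes, 4 of the 10 lower, and 5 lower and 1 higher of the wider list. Without the libraries over 20 CPM Myl7 it was 804 genes, 1 of the 10 lower (Hrc), and 3 lower and 3 higher. With 1 library left out it was 0 to 613 genes (613 without replicate 1 of KO-16), 0 to 3 of the 10 lower, and 0 to 3 lower and 0 to 2 higher of the wider list. The Sln difference was -1.13 and -2.44 with limma-voom quality or group weights and -0.26 without the libraries over 20 CPM Myl7, and that of Casq1 -0.42 to 0.0251 with 1 library left out.

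The log2 ratio of Slc8a1 to Atp2a2 differed by 0.93 at 16 weeks without the libraries with Y-linked transcripts. With 1 library left out it differed by 0.90 to 1.15 at 16 weeks, passing in 5 of 10 cases (exact permutation test, adjusted p 0.0317 to 0.0635). At 8 weeks it was 0.52 to 0.65 (adjusted p 0.0714 to 0.114). There, and without the libraries with Y-linked transcripts, the p was the smallest that the libraries left allow (0.0179 or 0.0286), so the missed threshold says nothing of stability. Casq1 to Casq2 was -0.12 without the libraries with Y-linked transcripts at 16 weeks, and -0.19 to 0.40 at 16 weeks and -0.0399 to 0.22 at 8 weeks with 1 library left out. Sln to Pln was -0.65 to 0.0133 at 8 weeks. Fewer libraries enter where libraries are left out, and for the other changes the cause was not tested. RLE factors, the filter of 1 CPM in 4 libraries, and leaving out rRNA or mitochondrial genes moved no count beyond 1.5 times. No paired analysis was possible because the labels carry no replicate numbers shared between groups.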
